A study of Mus musculus with 12 samples.

Results

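The 10 genes described here make, conjugate and carry bile acids in mouse liver, or feed back on their synthesis. They were chosen by name and matched by gene symbol: Cyp7a1, Cyp8b1, Cyp27a1 and Cyp7b1 of synthesis, Slc27a5 and Baat of conjugation, Slc10a1, Slco1b2 and Abcb11 of transport, and Nr0b2 of feedback. All 10 were found among the 50600 annotated genes of the deposited files, and all 10 were among the 15219 genes that passed the filter on low counts. The rule that picks them uses no measured value, but they were proposed with earlier results of these data known.

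Polyadenylated RNA of whole liver was sequenced in 12 libraries, 4 in each of 3 groups. Every group, the controls included, was of the strain Rosa26-LSL-dCas9-p300, which carries at the Rosa26 locus a nuclease-dead Cas9 fused to the histone acetyltransferase p300 behind a stop cassette that Cre recombinase removes. Mice of about 8 weeks received PBS, adeno-associated virus (AAV) with a non-targeting control guide RNA (gRNA), or AAV with a gRNA against Pdx1, a pancreatic transcription factor gene, through the tail vein, and livers were taken 2 weeks later. Virus was given at 1e+12 viral genomes per mouse and is named AAV.Cbh.gRNA, after a hybrid promoter. What that promoter drives, the source of Cre, the sex of the animals and whether each library came from its own mouse are not stated in the labels. All p-values therefore reflect variation between libraries, which may be technical. A PBS group of the same strain is thus compared with virus of either kind, and the Pdx1 gRNA with the control gRNA.

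Bile acids are detergents that hepatocytes make from cholesterol and secrete into bile, where they help to absorb fat and clear cholesterol. The classic route starts with Cyp7a1 and the alternative route with Cyp27a1 and Cyp7b1, and the products are joined to taurine, mostly, before export across the canalicular membrane. Most bile acids return from the gut in portal blood and are taken up again by carriers of the basolateral (sinusoidal) membrane. Bile acids activate the nuclear receptor FXR (Nr1h4), which induces Nr0b2 and Abcb11 and, partly through Nr0b2, lowers Cyp7a1 and Cyp8b1.

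Promoter sequence is shown for the 6 members that the RefSeq promoter table held, and was searched for 3 short motifs. Cyp7a1, Cyp7b1, Slc27a5 and Baat were not matched. Each line gives the 150 bases before the transcription start site on the gene's own strand, 5′ to 3′, from RefSeq (GRCm38.p6): chr9:121916306-121916455 (minus strand) for Cyp8b1, chr1:74713385-74713534 (plus) for Cyp27a1, chr12:80968706-80968855 (minus) for Slc10a1, chr6:141629368-141629517 (plus) for Slco1b2, chr2:69342617-69342766 (minus) for Abcb11 and chr4:133553226-133553375 (plus) for Nr0b2. Capitals mark matches, on either strand, to the 3 motifs searched: AGGTCA, the half-site of many nuclear receptors, TCAAGG, the core bound by LRH-1 (Nr5a2), and CAAAGTCCA, a site form bound by HNF4A.
Cyp8b1: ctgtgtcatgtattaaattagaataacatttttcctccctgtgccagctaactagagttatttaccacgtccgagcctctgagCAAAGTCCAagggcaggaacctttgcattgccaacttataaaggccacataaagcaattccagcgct
Cyp27a1: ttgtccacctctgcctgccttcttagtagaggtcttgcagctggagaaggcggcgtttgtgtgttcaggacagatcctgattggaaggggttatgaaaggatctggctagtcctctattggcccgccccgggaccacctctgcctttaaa
Slc10a1: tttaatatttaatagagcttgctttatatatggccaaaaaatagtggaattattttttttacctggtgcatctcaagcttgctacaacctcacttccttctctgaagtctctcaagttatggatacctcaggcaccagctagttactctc
Slco1b2: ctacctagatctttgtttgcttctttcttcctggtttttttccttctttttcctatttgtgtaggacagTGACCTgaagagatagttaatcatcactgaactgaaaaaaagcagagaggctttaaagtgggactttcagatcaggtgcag
Abcb11: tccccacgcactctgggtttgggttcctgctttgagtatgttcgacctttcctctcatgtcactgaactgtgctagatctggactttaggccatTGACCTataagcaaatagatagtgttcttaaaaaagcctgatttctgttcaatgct
Nr0b2: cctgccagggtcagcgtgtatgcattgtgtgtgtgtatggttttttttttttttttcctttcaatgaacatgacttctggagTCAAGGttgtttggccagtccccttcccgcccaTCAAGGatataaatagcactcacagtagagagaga
The Cyp8b1 window held CAAAGTCCA with its first base 67 bases before the start site. Slco1b2 and Abcb11 each held AGGTCA on the opposite strand, printed as TGACCT, at 81 and 56 bases. Nr0b2 held TCAAGG at 68 and at 35 bases. The windows of Cyp27a1 and Slc10a1 held none of these letters. Among the 32851 promoter windows of the table, 8.58% held AGGTCA, 7.26% TCAAGG and 0.271% CAAAGTCCA. A match describes the sequence and is not evidence of binding.

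Libraries held 11824767 to 22008046 assigned counts. Levels between libraries are given as CPM, counts as a share of the library size after TMM scaling, and levels between genes as CPM per kilobase of exon (FPKM). The labels were checked with the targeted gene: Pdx1 counts were 26, 32, 54 and 256 in the libraries with its gRNA, in order, with 2 counts in control gRNA library 4 and 0 counts in the other 7 libraries. The sex-chromosome genes did not separate the groups. PBS libraries 2 and 3 had 1024 and 828 counts of the Y-linked Ddx3y and 33 and 43 counts of Xist, while each of the other 10 libraries had 0 to 3 counts of Ddx3y and 10696 to 24067 of Xist. All 8 virus libraries thus had the female pattern and the PBS group had both. The comparisons of the 10 genes with PBS, and the counts over gene lists, are therefore also given without PBS libraries 2 and 3.

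Of the 8 hepatocyte markers (Alb, Apoa1, Ttr, Apob, Cps1, Tat, Serpina1a, Tdo2), each had counts in all 12 libraries. Their summed level was 86879 to 123854 CPM in the PBS group, 52027 to 69838 CPM with the control gRNA and 51143 to 103395 CPM with the Pdx1 gRNA. In control gRNA against PBS, 6 of 8 fell and none rose, with a median log2 fold change of -1.13, and in Pdx1 gRNA against PBS 2 of 8 fell, with a median of -0.74. The lowest sums in the virus groups were in control gRNA library 1 and Pdx1 gRNA library 4. Of the 8 tested cholangiocyte markers 5 rose and 1 fell with the control gRNA against PBS. The sum over all 9 was 59.4 to 123 CPM in the PBS group, 69.0 to 431 CPM with the control gRNA and 68.6 to 116 CPM with the Pdx1 gRNA. Of 10 markers each, 2 of macrophages and 2 of T and NK cells rose in control gRNA against PBS, near the 16.3% called higher over all genes. Of 7 markers of sinusoidal endothelium 2 fell in control gRNA and 4 in Pdx1 gRNA against PBS, and of 8 stellate cell markers 1 fell in control gRNA. Called lower over all genes were 15.8% in control gRNA and 10.4% in Pdx1 gRNA against PBS. None of the tested neutrophil markers (3) or B cell markers (5) was called. Fitted without PBS libraries 2 and 3, no hepatocyte, macrophage or T and NK cell marker was called in either comparison, with hepatocyte medians of -0.99 and -0.62 on the log2 scale. In that fit 1 cholangiocyte marker fell and none rose after control gRNA, and 2 of 7 endothelial markers fell. After Pdx1 gRNA 3 endothelial, 1 stellate and 1 neutrophil marker fell. Over all genes, that fit called 1140 lower and 1118 higher after control gRNA, and 549 and 728 after Pdx1 gRNA. In whole liver, fewer cells of a type and less RNA per cell cannot be told apart, and the part of these markers in the results below was not tested.

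In the fit of all 12 libraries, 9 of the 10 bile acid genes had a negative log2 fold change in each comparison of virus with PBS. In control gRNA against PBS 7 of 10 fell: Cyp27a1 and Cyp7b1 of synthesis, Slc27a5 and Baat of conjugation, and Slc10a1, Slco1b2 and Abcb11 of transport. No member rose by this test, while DESeq2 called 8 members, the same 7 and Cyp7a1, the latter higher. DESeq2 also called more of all genes, 5656 against 4887 by edgeR. Cyp7a1, the first enzyme of the classic route, was the only member with a higher mean after virus, and in edgeR neither it nor Cyp8b1 or Nr0b2 passed the test. Calls rest on edgeR's quasi-likelihood test with Benjamini-Hochberg adjustment over 15219 genes and a threshold of 0.05, and a gene is said to rise or fall only where it was called. Over all genes tested in this comparison, 15.8% were called lower and 16.3% higher. Of all called genes 50.9% were higher, and 61.8% with upper-quartile in place of TMM scaling, where the median log2 fold change of all genes was 0.10 and Abcb11 was not called. The members' log2 fold changes had a median of -1.40, beside -0.01 over all genes. In 6 of 10 members all 4 control gRNA libraries were below all 4 PBS libraries, beside 12.3% of all genes, and in none were they all above, beside 16.5%. Without PBS libraries 2 and 3, 3 of 10 members fell (Cyp27a1, Slc27a5 and Slco1b2), while over all genes 1140 were called lower and 1118 higher.

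With the Pdx1 gRNA, 5 of 10 fell against PBS (Cyp27a1, Cyp7b1, Slc27a5, Slc10a1 and Slco1b2) and none rose. Over all genes, 10.4% were called lower and 11.7% higher. The median of the members was -1.16 on the log2 scale, beside -0.06 over all genes. In 3 of 10 members (Cyp27a1, Cyp7b1 and Slco1b2) all Pdx1 gRNA libraries were below all PBS libraries, beside 8.74% of all genes, and in none were they all above, beside 12.7%. Without PBS libraries 2 and 3 no member was called, while over all genes 549 were called lower and 728 higher. Without Pdx1 gRNA library 4 there were 3 calls (Cyp27a1, Slc27a5 and Slco1b2). Both virus groups were compared with the same 4 PBS libraries, so these comparisons are not independent.

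**Figure D1:**
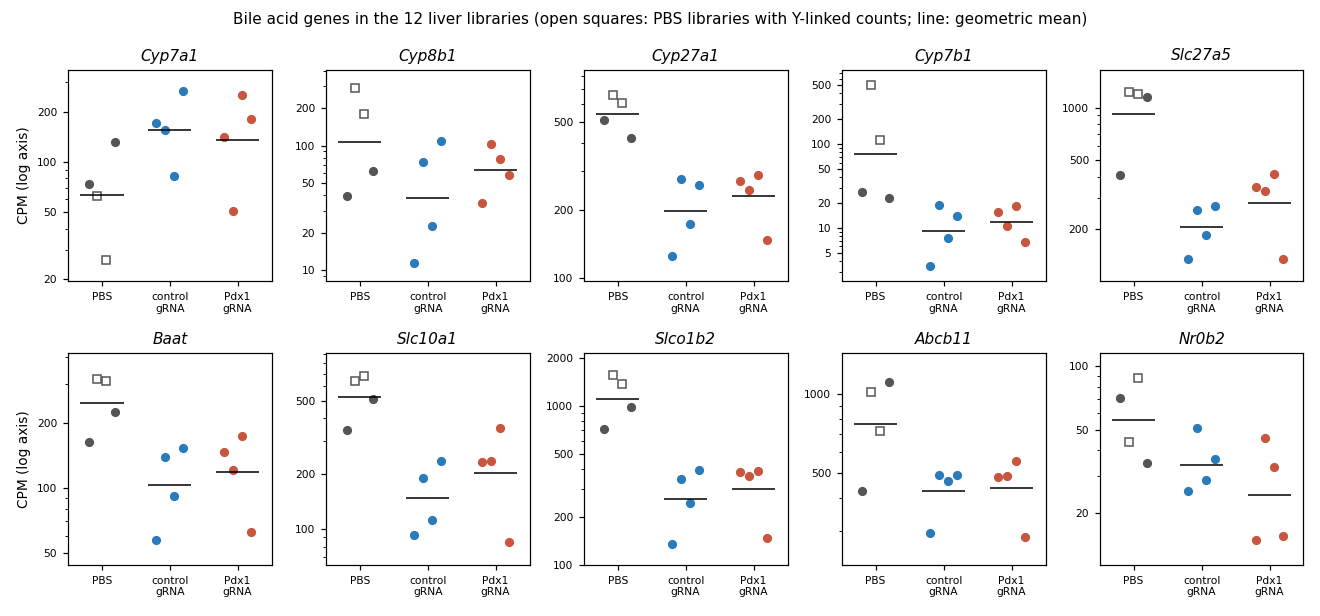
CPM (log axis) of the 10 bile acid genes in each of the 12 libraries, by group; points are libraries, the line is the geometric mean of 4, and open squares are PBS libraries 2 and 3. For Cyp27a1, Cyp7b1 and Slco1b2 every virus library lies below every PBS library, while Cyp7a1 lies higher on average after virus with overlapping groups.

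Cyp7a1 (ENSMUSG00000028240.2, chr4:6265612-6275633, minus strand, mm10) encodes cholesterol 7alpha-hydroxylase, the rate-limiting enzyme of the classic route. It had 74.0, 62.2, 26.1 and 132 CPM in PBS libraries 1 to 4. Control gRNA libraries 1 to 4 had 171, 156, 82.7 and 264 CPM of Cyp7a1, and Pdx1 gRNA libraries 1 to 4 had 142, 51.0, 251 and 182 CPM. The highest PBS library exceeded the lowest library of each virus group, so the groups overlapped. The log2 fold change of Cyp7a1 was 1.19 ± 0.52 (SE) for control gRNA against PBS (adjusted p = 0.0937) and 1.09 ± 0.52 for Pdx1 gRNA against PBS (adjusted p = 0.15), and neither passed 0.05. Fitted without PBS libraries 2 and 3, these values were 0.69 and 0.59, not called. Without PBS library 4 alone, Cyp7a1 was called higher in control gRNA against PBS, at 1.63, and so it was by DESeq2 with all libraries, at 1.17 (adjusted p = 0.0494).

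Cyp8b1 (ENSMUSG00000050445.4, chr9:121914356-121916305, minus strand), the sterol 12alpha-hydroxylase that sets how much cholic acid is made, varied widely within groups. PBS libraries 1 to 4 had 39.7, 289, 181 and 62.2 CPM of Cyp8b1. The values were 11.5, 73.2, 22.8 and 108 CPM after control gRNA and 34.6, 103, 78.6 and 57.6 CPM after Pdx1 gRNA. The PBS libraries with Y-linked counts were the highest of all 12, and the other 2 PBS libraries lay within the range of both virus groups. Neither comparison passed the test, at -1.41 ± 0.74 (adjusted p = 0.163) for control gRNA and -1.06 ± 0.73 (adjusted p = 0.32) for Pdx1 gRNA against PBS. The sign of the Cyp8b1 difference turned when PBS libraries 2 and 3 were left out, to 0.055 and 0.41. Cyp8b1 was called in none of the 3 comparisons.

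Cyp27a1 (ENSMUSG00000026170.6, chr1:74713574-74737892, plus strand) encodes the mitochondrial sterol 27-hydroxylase, which opens the alternative route and also shortens the side chain in the classic one. It had 508, 655, 605 and 421 CPM in PBS libraries 1 to 4. The levels were 126, 275, 174 and 261 CPM after control gRNA and 271, 248, 288 and 148 CPM after Pdx1 gRNA. Every virus library was below every PBS library. Cyp27a1 was 2.62-fold lower in control gRNA than in PBS (log2 fold change -1.39 ± 0.28, adjusted p = 0.00336). In Pdx1 gRNA it was 2.30-fold lower (-1.20 ± 0.28, adjusted p = 0.0102). The fall after control gRNA was also called without PBS libraries 2 and 3, at -1.18, and the fall after Pdx1 gRNA was not, at -0.98.

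Cyp7b1 (ENSMUSG00000039519.6, chr3:18071950-18243338, minus strand) encodes oxysterol 7alpha-hydroxylase, the next enzyme of the alternative route, and is known for higher levels in male than in female mouse liver. It had 26.8, 499, 111 and 22.4 CPM in PBS libraries 1 to 4. The virus libraries had 3.54, 18.6, 7.65 and 13.7 CPM with the control gRNA and 15.2, 10.4, 18.2 and 6.81 CPM with the Pdx1 gRNA. The PBS libraries with Y-linked counts were far above the other PBS libraries, with a mean ratio of 12.4, and yet all 8 virus libraries were also below PBS libraries 1 and 4. Cyp7b1 was 15.2-fold lower in control gRNA than in PBS (-3.93 ± 0.98, adjusted p = 0.012) and 13.03-fold lower in Pdx1 gRNA (-3.70 ± 0.97, adjusted p = 0.0211). These differences shrank to -1.20 and -0.98 without PBS libraries 2 and 3 and were not called. Leaving out PBS library 2 alone gave -2.30 and -2.08, both called. The call after Pdx1 gRNA was lost without Pdx1 gRNA library 2 (-3.64, adjusted p = 0.0586 in edgeR) or library 4 (-3.52, adjusted p = 0.0643) and without the filter on low counts.

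Slc27a5 (ENSMUSG00000030382.15, chr7:12988346-12998192, minus strand) encodes the bile acyl-CoA synthetase, which activates bile acids with coenzyme A so that they can be conjugated. Its levels in PBS libraries 1 to 4 were 410.4, 1231, 1196 and 1154 CPM. They were 135, 258, 186 and 271 CPM after control gRNA and 348, 331, 413 and 134 CPM after Pdx1 gRNA. PBS library 1 stood well below the other 3, and 1 Pdx1 gRNA library slightly exceeded it, while all control gRNA libraries were below it. Slc27a5 was 4.69-fold lower in control gRNA than in PBS (-2.23 ± 0.40, adjusted p = 0.00198). It was 3.26-fold lower in Pdx1 gRNA (-1.70 ± 0.40, adjusted p = 0.0103). Without PBS libraries 2 and 3 the values were -1.91, still called, and -1.38, not called.

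Baat (ENSMUSG00000039653.9, chr4:49489422-49506557, minus strand) encodes the transferase that then joins the activated bile acid to taurine or glycine. It had 163, 319, 312 and 223 CPM in PBS libraries 1 to 4. The levels were 57.5, 138, 91.4 and 152 CPM after control gRNA and 147, 120.4, 173 and 62.7 CPM after Pdx1 gRNA. The control gRNA libraries were all below PBS, and Pdx1 gRNA library 3 exceeded PBS library 1. Baat was 2.32-fold lower in control gRNA than in PBS (-1.21 ± 0.35, adjusted p = 0.0208), a call lost without PBS libraries 2 and 3 (-0.84), without either one of them (-1.09 and -1.10) and without control gRNA library 3 (-1.15). For Pdx1 gRNA against PBS the difference was -1.02 ± 0.35 and did not pass the test (adjusted p = 0.0554). It was called in 6 of 24 alternative fits, among them DESeq2 (-1.04), a stricter filter (-1.03) and the fits without PBS library 1 (-1.18), control gRNA library 1 (-1.03) or Pdx1 gRNA library 3 (-1.21), and was -0.64 without PBS libraries 2 and 3.

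Slc10a1 (ENSMUSG00000021135.8, chr12:80953183-80968705, minus strand) encodes NTCP, the sodium-dependent carrier that takes conjugated bile acids up from portal blood. It had 347, 638, 678 and 508 CPM in PBS libraries 1 to 4. With the control gRNA the libraries had 92.7, 189, 112 and 235 CPM of Slc10a1, and with the Pdx1 gRNA 230.0, 234, 354 and 84.4 CPM. All control gRNA libraries were below all PBS libraries, and Pdx1 gRNA library 3 overlapped with PBS library 1. Slc10a1 was 3.45-fold lower in control gRNA than in PBS (-1.79 ± 0.41, adjusted p = 0.00634) and 2.41-fold lower in Pdx1 gRNA (-1.27 ± 0.40, adjusted p = 0.0399). Neither was called without PBS libraries 2 and 3, at -1.47 and -0.94. The call after Pdx1 gRNA was also lost in 7 of the 12 fits that left out 1 library, which gave -1.57 to -1.01.

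Slco1b2 (ENSMUSG00000030236.10, chr6:141629518-141686646, plus strand) encodes OATP1B2, the sodium-independent carrier that takes up unconjugated bile acids and bilirubin. It had 719, 1570.3, 1378 and 977 CPM in PBS libraries 1 to 4. The levels were 135, 346, 246 and 395 CPM after control gRNA and 384, 361, 390.2 and 148 CPM after Pdx1 gRNA. Every virus library was below every PBS library, and within the Pdx1 gRNA group library 4 stood apart below the other 3. Slco1b2 was 4.14-fold lower in control gRNA than in PBS (-2.05 ± 0.39, adjusted p = 0.00249) and 3.62-fold lower in Pdx1 gRNA (-1.86 ± 0.39, adjusted p = 0.00619). Leaving out PBS libraries 2 and 3 gave -1.62, called, and -1.42, not called.

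Abcb11 (ENSMUSG00000027048.15, chr2:69238282-69342616, minus strand) encodes BSEP, the ATP-driven pump that exports bile acids across the canalicular membrane. PBS libraries 1 to 4 had 427, 1016, 722 and 1113 CPM of Abcb11. The virus libraries had 293, 488, 464 and 489 CPM with the control gRNA and 481, 486, 553 and 284 CPM with the Pdx1 gRNA. PBS library 1 lay below most virus libraries, and the other 3 PBS libraries lay above all of them. Abcb11 was 1.89-fold lower in control gRNA than in PBS (-0.92 ± 0.31, adjusted p = 0.036). That call was lost in 7 of the 12 fits that left out 1 library, where the value ran from -1.13 to -0.74, and without PBS libraries 2 and 3 (-0.86). Against PBS the Pdx1 gRNA difference of -0.86 ± 0.31 did not pass the test (adjusted p = 0.06). That difference was called in 2 of 24 alternative fits, by DESeq2 (-0.88) and without PBS library 1 (-1.08). Of the exon bases of Abcb11 3.01% are shared with the predicted genes Gm13613 and Gm13614, and the exons of the other 9 members overlap no other annotated gene.

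Nr0b2 (ENSMUSG00000037583.2, chr4:133553376-133556536, plus strand) encodes SHP, the FXR-induced repressor that closes the feedback on synthesis. It had 71.0, 43.7, 87.8 and 34.8 CPM in PBS libraries 1 to 4. The levels were 25.4, 51.1, 28.7 and 36.1 CPM after control gRNA and 14.9, 45.5, 33.2 and 15.5 CPM after Pdx1 gRNA. The groups overlapped, although the 5 lowest of the 12 libraries were from virus livers. Neither comparison passed the test, at -0.75 ± 0.39 (adjusted p = 0.157) for control gRNA and -1.12 ± 0.39 (adjusted p = 0.0564) for Pdx1 gRNA against PBS. Nr0b2 stood at -0.60 and -0.97 when PBS libraries 2 and 3 were dropped, not called. In the fits that left out 1 library, the Pdx1 gRNA difference was called without PBS library 4 (-1.31) and without Pdx1 gRNA library 2 (-1.50). With all libraries it was called by DESeq2 (-1.14), by limma-voom (-1.23) and with the replicate number as a block (-1.24).

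**Figure D2:**
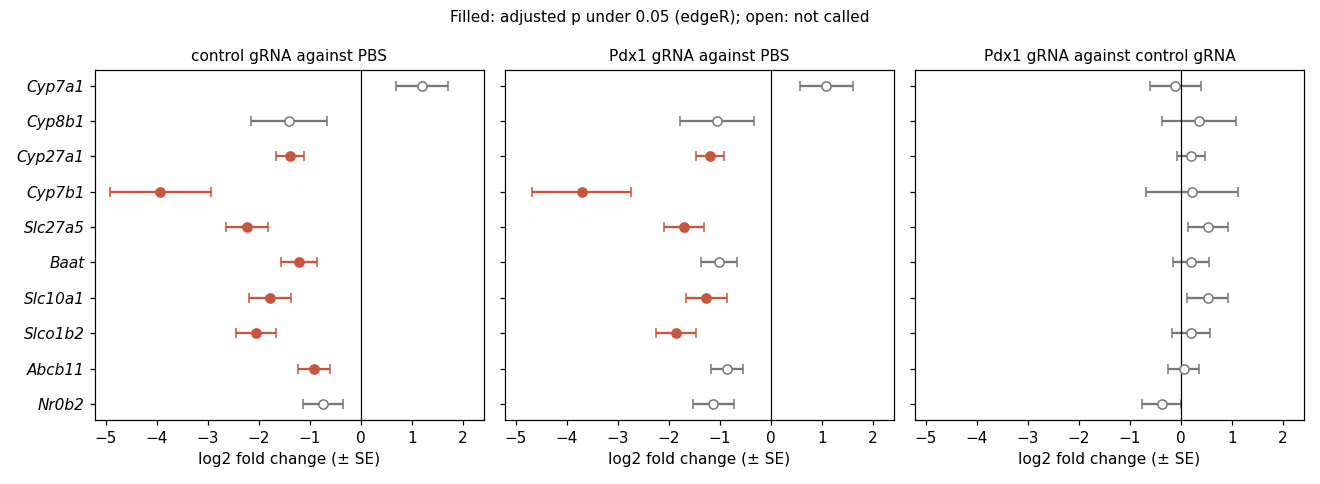
Log2 fold change with its SE for the 10 genes in the 3 comparisons, from the fit of all 12 libraries; filled points have an adjusted p under 0.05. In both comparisons with PBS 9 of 10 points lie below 0 and Cyp7a1 lies above it, and in Pdx1 gRNA against control gRNA no point is filled.

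No difference between the gRNA groups was detected in these genes. In Pdx1 gRNA against control gRNA 0 of 10 members were called, and 0% of all genes were called. None had an unadjusted p under 0.05, beside 918 of 15219 genes by edgeR, where DESeq2 called 14 genes and no member and limma-voom called 0. All 10 members overlapped between these groups, and 6.65% of all genes did not. The log2 fold changes ran from -0.38 for Nr0b2 to 0.53 for Slc27a5, with a median of 0.19 beside -0.01 over all genes. The 95% intervals of the log2 difference, from its SE, were wide: from -0.35 to 0.73 for Cyp27a1, from -0.23 to 1.29 for Slc27a5, from -0.26 to 1.30 for Slc10a1, from -0.54 to 0.65 for Abcb11, and from -1.54 to 1.98 for Cyp7b1. A difference of 2-fold in either direction lies outside these intervals of Cyp27a1, Baat, Slco1b2 and Abcb11, which does not hold for the other 6 members. With so few libraries per group this multiple gives less than 95% intervals. The upper limit of 0.93 for Slco1b2 therefore does not exclude a 2-fold difference.

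Within the virus groups the same libraries were low or high in most members. Control gRNA library 1 was the lowest of its group in 9 of 10 members, and Pdx1 gRNA library 4 was the lowest of its group in 7 of 10. Control gRNA library 4 was the highest of its group in 7 of 10 members and Pdx1 gRNA library 3 in 8 of 10. In the PBS group library 1 was the lowest in 6 of 10 members and library 2 the highest in 6 of 10. How often each library was lowest or highest over all genes was not counted. These counts are thus not shown to be particular to the bile acid genes. As a share of all counts, the 10 members made up 0.26 to 0.525% of the PBS libraries, 0.128 to 0.237% with the control gRNA and 0.134 to 0.238% with the Pdx1 gRNA, with the lowest shares in control gRNA library 1 and Pdx1 gRNA library 4. Those libraries had the highest TMM factors of their groups and the lowest hepatocyte marker sums, 52027 and 51143 CPM. Pdx1 gRNA library 4 also had the most Pdx1 counts. The part of these values in the members' levels was not tested.

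Per kilobase of exon, the order of the genes also differed between groups. After PBS, Slc27a5 had the highest mean, 409 ± 161 FPKM (SD, n = 4), followed by Cyp27a1, Slc10a1 and Slco1b2 at 252 ± 47.8, 247 ± 68.0 and 235 ± 78.0 FPKM. Abcb11 and Baat came next at 159 ± 60.3 and 131 ± 38.7 FPKM, and Cyp7a1 was lowest at 17.6 ± 10.5 FPKM. Every pair of neighbours in that order overlapped over libraries. After control gRNA, Cyp27a1 had the highest mean (96.1 ± 32.9 FPKM), Cyp7a1 stood in place 7 at 40.3 ± 17.9 FPKM and Cyp7b1 was lowest at 5.02 ± 3.06 FPKM, again with all neighbours overlapping. After Pdx1 gRNA, Slc27a5 was again first (126 ± 49.3 FPKM) and Cyp7a1 was again in place 7 (37.5 ± 20 FPKM). There Cyp7b1, at 5.84 ± 2.34 FPKM, lay below Nr0b2, at 24.1 ± 13.1 FPKM, without overlap.

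**Figure D3:**
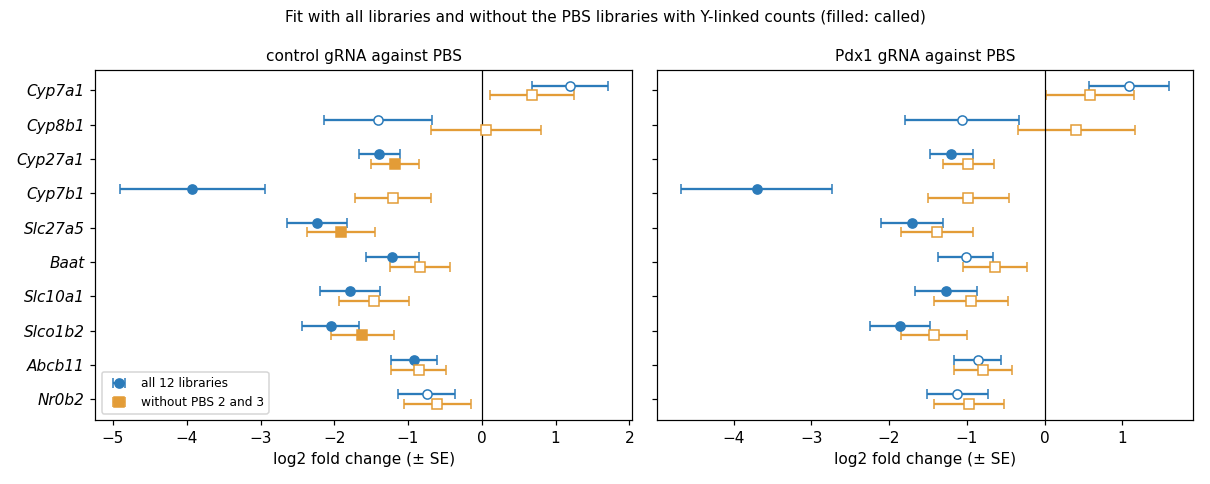
Log2 fold change with its SE against PBS for the 10 genes, fitted with all 12 libraries (circles) and without PBS libraries 2 and 3 (squares); filled symbols were called. Cyp7b1 moves from -3.93 to -1.20 and from -3.70 to -0.98, Cyp8b1 crosses 0, and the others keep their sign.

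The PBS libraries with Y-linked counts differed from the other PBS libraries in most members, at 2 libraries each and so without a test. Their mean was 12.4 times that of PBS libraries 1 and 4 for Cyp7b1 and 4.61 times for Cyp8b1. It was 1.13 to 1.74 times for the other members except Cyp7a1, which was at 0.43 times. Abcb11 and Nr0b2 overlapped between these pairs of libraries, with Abcb11 highest in PBS library 4 (1113 CPM). For Slc27a5 PBS library 4 (1154 CPM) was close to libraries 2 and 3 (1231 and 1196 CPM), and library 1 was low (410 CPM). PBS library 1 also had the highest mitochondrial share of counts of the 12 libraries, 8.07%, whose part was not tested. Against PBS libraries 1 and 4 alone, all 4 control gRNA libraries were below both for 6 members (Cyp27a1, Cyp7b1, Slc27a5, Baat, Slc10a1 and Slco1b2), and all 4 Pdx1 gRNA libraries were below both for 3 (Cyp27a1, Cyp7b1 and Slco1b2). Over all genes tested control gRNA libraries were all below both for 17.1% and Pdx1 gRNA libraries for 14.9%. Liver genes known for higher levels in male mice moved with these libraries. All 7 tested genes of that list fell with the control gRNA against PBS, Cyp7b1 and Slco1a1 among them, and 6 of 7 fell in Pdx1 gRNA against PBS. Cyp2d9, a male-biased cytochrome P450, had 2188 and 1492 CPM in PBS libraries 2 and 3, 27.0 and 9.44 CPM in PBS libraries 1 and 4, and 16.9 to 77.9 CPM in the 8 virus libraries. Nudt7, the other male-biased gene named, was less sharply split, with 814 and 528 CPM in PBS libraries 2 and 3, 232 and 133 CPM in PBS libraries 1 and 4, and 53.3 to 183 CPM in the virus libraries. Fitted without PBS libraries 2 and 3, none of the 7 male-biased genes was called. Their median log2 fold changes were then -1.09 after control gRNA and -0.46 after Pdx1 gRNA, against -4.16 and -4.96 with all 12 libraries. Of 8 female-biased genes none was called in either comparison in the fit of all 12 libraries, with medians of -0.86 and 0.14 on the log2 scale. Without PBS libraries 2 and 3, 1 of 8 fell after control gRNA and 0 after Pdx1 gRNA, with medians of -1.83 and -0.87. Cyp2a4 had 13.7 and 21.3 CPM in PBS libraries 2 and 3 against 1324 to 4490.2 CPM in the other 10 libraries. A1bg, the other female-biased gene named, had 1.81 and 2.66 CPM in PBS libraries 2 and 3, but 112 and 3694 CPM in PBS libraries 1 and 4 and 5.34 to 207 CPM in the virus libraries. The virus libraries thus lay nearer to PBS libraries 1 and 4 than to 2 and 3 in Cyp2a4, and between PBS libraries 2 and 3 and PBS library 4 in A1bg.

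The remaining genes of the pathway were taken from lists by role. For comparison with the counts over these lists, 15.8% of all genes were called lower and 16.3% higher in control gRNA against PBS. In Pdx1 gRNA against PBS 10.4% were called lower and 11.7% higher. Without PBS libraries 2 and 3 fewer genes of any kind were called. After control gRNA 1140 genes were then lower and 1118 higher, against 2399 and 2488 with all libraries. After Pdx1 gRNA 549 were lower and 728 higher, against 1583 and 1787. Of 15 other genes of synthesis 14 were tested, of which 5 fell in control gRNA against PBS and 2 in Pdx1 gRNA against PBS, none rose, and the medians were -0.77 and -0.67 on the log2 scale. Scp2, which encodes a thiolase of side-chain shortening in peroxisomes, had 1746, 6267, 4933 and 1929 CPM in PBS libraries 1 to 4. It had 677, 1053, 824 and 970.4 CPM after control gRNA and 1178, 1538, 1257 and 638 CPM after Pdx1 gRNA, all below PBS. The log2 fold change of Scp2 was -2.08 ± 0.42 (adjusted p = 0.00336) for control gRNA and -1.69 ± 0.41 (adjusted p = 0.0128) for Pdx1 gRNA against PBS. The first was -1.08, still called, without PBS libraries 2 and 3, and the second was -0.69, not called. Slc27a2, which activates bile acid precursors, fell by 1.42 and 1.08 on the log2 scale (adjusted p = 0.00889 and 0.0401). The second of these calls was lost in 5 of the 12 fits that left out 1 library, which gave -1.27 to -0.88, and without PBS libraries 2 and 3 (-0.68). Abcd3, the peroxisomal importer of these precursors, and Hsd17b4, a peroxisomal enzyme of side-chain shortening, fell after control gRNA, by 1.26 and 0.89. The Hsd17b4 call was lost in 5 of the 12 fits that left out 1 library. Neither was called after Pdx1 gRNA, at -0.94 and -0.69. Their differences after control gRNA, fitted without PBS libraries 2 and 3, were -0.53 and -0.26, and that of Slc27a2 was -1.02, none called. Akr1c6, of a family of keto-steroid reductases, was not called, at -0.79 and -0.45, or -0.40 and -0.054 without those PBS libraries, where 1 of 14 fell after control gRNA and 0 after Pdx1 gRNA. The count after control gRNA was 8 without PBS library 1, and 3 without PBS library 2 or 3 or control gRNA library 1, 2 or 3. After Pdx1 gRNA it was 6 without PBS library 1, and 1 without PBS library 2 or 3, control gRNA library 2 or Pdx1 gRNA library 1 or 4.

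**Figure D4:**
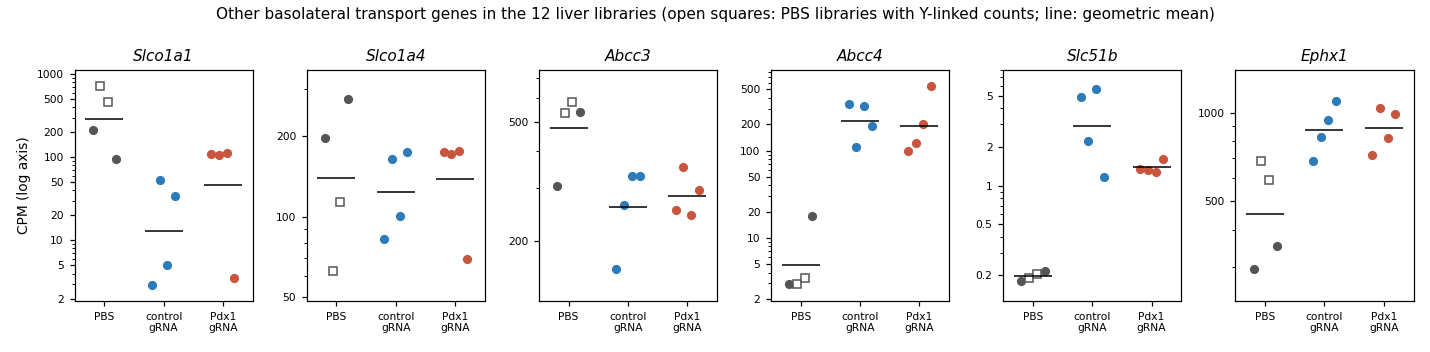
CPM (log axis) of 6 further genes of basolateral bile acid transport in each of the 12 libraries; points are libraries, the line is the geometric mean of 4, and open squares are PBS libraries 2 and 3. Abcc4 and Slc51b are higher in every virus library than in every PBS library, and Slco1a1 is lowest in control gRNA libraries 1 and 3 and Pdx1 gRNA library 4.

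Genes of the basolateral membrane split by direction. Of 8 listed genes 7 were tested, of which 3 rose and 3 fell with the control gRNA against PBS, and 3 rose and 2 fell in Pdx1 gRNA against PBS. The 3 that rose in both were Abcc4, Slc51b and Ephx1. Fitted without PBS libraries 2 and 3, 3 rose in each comparison, 1 fell after control gRNA and 0 after Pdx1 gRNA. Abcc4 (MRP4), a pump that returns bile acids to blood, had 2.94, 2.95, 3.48 and 17.9 CPM in PBS libraries 1 to 4. It had 339, 111, 325 and 191 CPM after control gRNA and 97.7, 121, 201 and 542 CPM after Pdx1 gRNA. Every virus library was several times above the highest PBS library. The log2 fold change of Abcc4 was 5.13 ± 0.80 for both comparisons with PBS (adjusted p = 0.00108 for control gRNA and 0.00163 for Pdx1 gRNA), and without PBS libraries 2 and 3 it was 4.51 and 4.53, both called. Control gRNA library 1 and Pdx1 gRNA library 4, the lowest of their groups in most members, were the highest of their groups in Abcc4.

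Slc51b, named here after its values were seen, encodes the beta subunit of the basolateral exporter OST. It had 2 or 3 counts in each PBS library, 21 to 136 with the control gRNA and 17 to 32 with the Pdx1 gRNA, so its levels were low in every group. Its log2 fold change was 4.11 ± 0.53 (adjusted p = 0.000343) and 2.79 ± 0.54 (adjusted p = 0.00412), and 4.09 and 2.78 without PBS libraries 2 and 3, both called. Slc51a, the alpha subunit, had 0 counts in all 12 libraries. Ephx1, an epoxide hydrolase also described as a sinusoidal bile acid carrier, had 294 to 684 CPM in the PBS group, 688 to 1092 CPM with the control gRNA and 719 to 1041 CPM with the Pdx1 gRNA. It rose by 0.89 ± 0.27 (adjusted p = 0.0262) and 0.90 ± 0.27 (adjusted p = 0.0337), and by 1.43 and 1.45 without PBS libraries 2 and 3. Each of these calls was lost without PBS library 4 (0.76 and 0.77) and without control gRNA library 3 (0.84 and 0.89). The first was also lost without control gRNA library 4 (0.77) and the second without Pdx1 gRNA library 2, 3 or 4 (0.81 to 0.93).

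Slco1a1, an organic anion uptake carrier known as male-biased, fell in control gRNA against PBS. It had 212, 716, 463 and 96.2 CPM in PBS libraries 1 to 4 and 2.95, 54.0, 5.13 and 34.6 CPM after control gRNA. After Pdx1 gRNA it had 110.1, 107, 112 and 3.51 CPM. Its log2 fold change was -3.95 ± 1.17 (adjusted p = 0.0252) for control gRNA, and -2.16 ± 1.08, not called (adjusted p = 0.176), for Pdx1 gRNA against PBS. The call was lost without PBS libraries 2 and 3 (-2.69), PBS library 2 alone (-3.42), control gRNA library 1 (-3.60) or 3 (-3.63). Abcc3 (MRP3), another basolateral exporter, fell by 0.85 and 0.77 (adjusted p = 0.0245 and 0.0479), and was not called without PBS libraries 2 and 3 (-0.67 and -0.57). The first of these calls was lost in 5 and the second in 10 of the 12 fits that left out 1 library. Slco1a4 was not called, at -0.31 and -0.13, or -0.88 and -0.69 without those PBS libraries. Slco1a1 and Slco1a4 belong to a family of related genes, and how well reads tell its members apart was not tested. After Pdx1 gRNA the count of called basolateral genes went from 5 to 3 without any one of PBS library 4, control gRNA library 3 and Pdx1 gRNA libraries 2, 3 and 4.

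At the canalicular membrane 5 of 8 tested genes besides Abcb11 fell in each comparison with PBS and none rose, with medians of -0.90 and -0.85 on the log2 scale. Abcg5 and Abcg8 together form the pump that secretes cholesterol into bile. Abcg8 had 145, 213, 279.6 and 252 CPM in PBS libraries 1 to 4. It had 67.8, 59.8, 108 and 66.0 CPM after control gRNA and 63.0, 82.9, 68.4 and 52.2 CPM after Pdx1 gRNA, all below PBS. Its log2 fold change was -1.56 ± 0.24 (adjusted p = 0.000882) and -1.74 ± 0.24 (adjusted p = 0.000823). That of Abcg5 was -1.04 ± 0.22 (adjusted p = 0.00407) and -1.29 ± 0.22 (adjusted p = 0.00208). Both kept their calls in all 24 alternative fits in each comparison. Tmem30a, which partners the lipid flippases of that membrane, fell by 0.75 and 0.60 (adjusted p = 0.00239 and 0.0108). The second of these calls ended without PBS libraries 2 and 3 (-0.54, adjusted p = 0.075 in edgeR), and the first did not (-0.70). The phospholipid flippase Abcb4 was not called, at -0.04 (0.10 with upper-quartile scaling) and 0.18, and Abcc2 (MRP2), which exports conjugates of bilirubin and divalent bile acids, was not, at -0.46 and -0.38, or -0.25 and -0.16 without those PBS libraries. Without PBS libraries 2 and 3, 4 of 8 fell after control gRNA and 3 of 8 after Pdx1 gRNA.

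Of 18 listed regulators 15 were tested. With the control gRNA 11 of them fell against PBS, with the Pdx1 gRNA 3, and none rose. The medians were -0.81 and -0.49 on the log2 scale. Nr1h4 (FXR) had 143 to 267 CPM in the PBS group, 65.0 to 146 CPM with the control gRNA and 68.5 to 212 CPM with the Pdx1 gRNA, and was not called, at -0.78 ± 0.35 (adjusted p = 0.101) and -0.42 ± 0.35 (adjusted p = 0.411), or -0.95 and -0.59 without PBS libraries 2 and 3. Hnf4a, which drives Cyp7a1 and Cyp8b1 among many hepatocyte genes, had 549, 1066, 840.3 and 902 CPM in PBS libraries 1 to 4. It had 433, 493, 473 and 512 CPM after control gRNA, all below PBS, and 555, 568, 701 and 561 CPM after Pdx1 gRNA, which overlapped with PBS library 1. Its fall after control gRNA was 0.81 ± 0.20 (adjusted p = 0.00982), and after Pdx1 gRNA it was at -0.49 ± 0.20, not called (adjusted p = 0.0989). Rxra, the partner of FXR, fell by 0.99 after control gRNA (adjusted p = 0.00876) and was at -0.65 after Pdx1 gRNA (adjusted p = 0.0711). Prox1, a repressor of Cyp7a1, fell by 0.55 after control gRNA (adjusted p = 0.0459), a call lost in 7 of the 12 fits that left out 1 library and without PBS libraries 2 and 3 (-0.50). Mafg, an FXR-induced repressor of Cyp8b1, was not called, at 0.07 and 0.14. Without PBS libraries 2 and 3, 5 of 15 regulators fell after control gRNA, Hnf4a (-0.63) and Rxra (-0.55) no longer among them, and 2 of 15 after Pdx1 gRNA. After control gRNA the count was 7 without PBS library 4 and without control gRNA library 1, 2 or 3. After Pdx1 gRNA it was 7 without PBS library 1, and 1 without PBS library 3 or 4 or Pdx1 gRNA library 2. Fgf15, the gut hormone of the feedback, had 0 counts in all 12 libraries, and Gpbar1 and Vdr were too low to be tested.

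Of 6 genes that detoxify bile acids by hydroxylation, sulfation or glucuronidation, 2 fell in control gRNA against PBS, 0 in Pdx1 gRNA against PBS, and none rose. Sult2a8, a sulfotransferase, had 234, 970.4, 880.4 and 327 CPM in PBS libraries 1 to 4 and 5.75, 71.2, 16.8 and 97.3 CPM after control gRNA. Its fall of 3.66 ± 1.00 on the log2 scale (adjusted p = 0.0169) came to -2.58, not called, without PBS libraries 2 and 3. After Pdx1 gRNA it had 121, 122, 155 and 7.82 CPM and was not called (-2.57 ± 0.95, adjusted p = 0.0742). Ugt1a1, a glucuronosyltransferase that shares exons with other Ugt1a genes, fell by 1.37 after control gRNA (adjusted p = 0.0109) and was at -1.33, not called, without those PBS libraries. Cyp3a11, the main hydroxylase, was not called, at -0.05 (0.08 with upper-quartile scaling) and 0.12. Sult2a1 and Sult2a2 are near-identical copies, so their counts are uncertain. Each had under 1 CPM in PBS libraries 2 and 3, and neither was called. In Pdx1 gRNA against control gRNA no gene of the 5 lists was called.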

How the data were processed

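RNA-seq counts of 12 mouse livers (3 groups of 4) were analysed. The deposited counts are whole numbers of fragments per gene, not normalized. Per the file headers, they were made with featureCounts 1.4.6-p4 from paired-end alignments, both ends mapped, without strand, summed over exons of GENCODE M13. Without strand, reads of overlapping antisense genes cannot be told apart. Per the submitters' processing notes, the tools included R 3.5.1 with DESeq2 1.22.0, STAR 2.4.1a and Trimmomatic 0.32, and the builds were mm10 and GRCm38. Of 50600 gene IDs 50376 matched a symbol.

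All 12 libraries were fitted together by the robust quasi-likelihood method of edgeR 4.0.16 (R 4.3.3; two-sided), after filterByExpr on the group (minimum count 10) and TMM scaling. The SE is the log2 fold change divided by the root of the F statistic. Genes with a Benjamini-Hochberg adjusted p under 0.05 over 15219 tested genes were called. DESeq2 1.42.0 and limma-voom (limma 3.58.1) were alternatives, as were other scalings and filters, fits of the 8 libraries compared, libraries left out and a Y-linked covariate. The code was tested on simulated data. With chi-square values of 19.3 to 177 per degree of freedom within groups, no library was a copy of another of its group. Libraries of different groups were not compared in this way.

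The members and lists were chosen with earlier results of these data known. Named were the 10 members, Pdx1, Xist, Ddx3y, the 5 most abundant tested genes of each of 5 pathway lists, the 2 most abundant of each sex-biased list, and any cell type marker. Replicate numbers were not used as pairs: the labels give them no meaning, and only 2 of 12 same-number pairs correlated above 0.1.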

Additional observations from a re-analysis of the deposited data

Results flagged for a closer look

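A library was set apart where its gap to the nearest of the other 3 of its group, divided by the group's range, exceeded Dixon's 95% critical value. That was so in 11 of 105 groups of 4, where chance gives about 1 in 20. Among the bile acid genes, Slc27a5 in PBS library 1 was low at 410.4 CPM, Slco1b2 in Pdx1 gRNA library 4 was low at 148 CPM and Abcb11 in control gRNA library 1 was low at 293 CPM. In Pdx1 gRNA library 4, Akr1c6 (296 CPM), Slco1a1 (3.51 CPM) and Slco1a4 (69.5 CPM) were also low. In PBS library 1, Abcc3 was low at 305 CPM. Abcc4 was high in PBS library 4 (17.9 CPM), Abcg8 in control gRNA library 3 (108 CPM), Hnf4a in Pdx1 gRNA library 3 (701 CPM) and Rxra in control gRNA library 2 (280.1 CPM). No cause of these values was tested.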

How the results depend on the processing

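Each comparison was refitted under 24 alternatives, and the causes of the changes were not tested. In control gRNA against PBS, 7 members and 4887 genes were called. These became 3 and 2258 without the PBS libraries with Y-linked counts (2 and 3) and 4 and 2785 with a covariate for them, and ran from 5 to 7 and from 3445 to 6875 with 1 library left out. In Pdx1 gRNA against PBS, 5 members and 3370 genes were called. Members came to 3 with no filter, 8 with DESeq2, 0 without PBS libraries 2 and 3 and 1 with the covariate. Genes came to 2477 with no filter, 4199 with DESeq2 and 2017 in the fit of the 8 libraries compared. They came to 1277 without those PBS libraries and 1795 with the covariate. Leaving out 1 library gave 3 to 7 members and 2132 to 5421 genes. In Pdx1 gRNA against control gRNA, DESeq2 called 14 genes and the fit of 8 libraries 1, leaving out 1 library gave 0 to 1, and no alternative called a member.

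With the replicate number as a block, 6 members were called in control gRNA and 4 in Pdx1 gRNA against PBS. Abcb11 lost its call in the first, Cyp7b1 (-2.70) and Slc10a1 (-1.25) lost theirs in the second, and Nr0b2 gained one there (-1.24). The numbers are not known to pair libraries: the best correlated library had the same number for 1 of 12 libraries.

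No called member changed sign against PBS in any alternative. Cyp8b1 did, at 0.055 (control gRNA) and 0.41 (Pdx1 gRNA) without PBS libraries 2 and 3 and 0.078 and 0.43 with the covariate. Among uncalled pathway genes in control gRNA against PBS, Abcb4 turned to 0.10 (upper quartile), 0.0064 (limma-voom), 0.027 (block), 0.40 (without PBS libraries 2 and 3) and 0.43 (covariate), Cyp3a11 to 0.083 (upper quartile), 0.011 (block), 0.46 and 0.49, and Mafg to -0.11 and -0.094. Mafg in Pdx1 gRNA against PBS turned to -0.032 and -0.021, and Slco1a4 to 0.041 with limma-voom. With 1 library left out in control gRNA against PBS, ranges were -0.25 to 0.19 for Abcb4, -0.21 to 0.22 for Cyp3a11, -0.043 to 0.31 for Mafg and -0.58 to 0.072 for Slco1a4. In Pdx1 gRNA against PBS they were -0.043 to 0.41 for Abcb4, -0.041 to 0.39 for Cyp3a11, -0.22 to 0.037 for Prox1 and -0.40 to 0.26 for Slco1a4. In Pdx1 gRNA against control gRNA they were -0.43 to 0.20 for Cyp7a1, -0.065 to 0.61 for Cyp7b1, -0.0075 to 0.42 for Baat, -0.028 to 0.43 for Slco1b2 and -0.079 to 0.23 for Abcb11.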
